A study of Rattus norvegicus with 9 samples.

Results

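Genes of the interferon response and of the major histocompatibility complex (MHC) were followed in brain cortex from 9 rats of the Sprague-Dawley stock. They were 60 days old, 3 were female and 6 male. All 9 were non-irradiated and formed the control group of an animal model of cortical dysplasia, so every comparison here is made among untreated animals. Cortex had been separated from hippocampus, its total RNA amplified and labelled with biotin, and 1 Illumina rat bead array hybridised per animal. Sprague-Dawley is an outbred stock, and the labels give neither litter nor genotype. Members were the probes whose platform gene symbol begins with RT1- (the rat MHC), Ifi, Irf, Stat, Isg, Oas or Gbp in the forms used for interferon genes, or is Mx1, Mx2, Tap1, Tap2, B2m, Bst2 or Cd74. The rule itself uses no measured value, although it was chosen with earlier results of these data known. It found 65 probes of 65 genes, 1 probe per gene, among 10687 probes with a symbol and 22517 probes on the array. They comprised 20 genes of MHC class I presentation, 8 of class II presentation, 22 interferon-induced effectors, 7 interferon regulatory factors (IRFs), 6 STATs and 2 IRF2-binding proteins. These groups follow gene symbols and not measured induction, so the effectors also hold paralogues such as Isg20l2. Of the 65, 25 lie on rat chromosome 20, which carries the RT1 complex.

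MHC class I molecules pair a heavy chain with beta-2-microglobulin and show peptides from inside the cell, loaded through the TAP transporter; class II molecules show peptides taken up from outside and belong mainly to antigen-presenting cells, which in brain tissue are microglia and the macrophages of its borders. Interferons signal through STAT proteins and IRF9 to switch on antiviral effectors, and IRF7 is itself induced and amplifies the response. In healthy cortex these programmes are known to run at a low resting level, and the RT1 class I region is known to differ between rat strains in the number and sequence of its genes. Because the arrays measured whole cortex, fewer cells of a type and less RNA per cell cannot be told apart in any value below.

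Promoter sequences are shown for 6 members: B2m and Ifi27, the genes with the brightest probe of their groups, Gbp2, the effector with the smallest p of correlation with Ifi27, and Irf7, Ifi44l and RT1-S3, on which the differences between animals turn. Each runs from 250 bases before to 50 bases after the annotated start, as given by RefSeq on the GRCr8 assembly. Capitals mark matches, on either strand, to GAAA followed by any 2 bases and GAAA again, the core of the interferon-stimulated response element (ISRE), which IRFs and the STAT complex with IRF9 are known to bind.
B2m, at chr3:129549080-129549379 on the plus strand: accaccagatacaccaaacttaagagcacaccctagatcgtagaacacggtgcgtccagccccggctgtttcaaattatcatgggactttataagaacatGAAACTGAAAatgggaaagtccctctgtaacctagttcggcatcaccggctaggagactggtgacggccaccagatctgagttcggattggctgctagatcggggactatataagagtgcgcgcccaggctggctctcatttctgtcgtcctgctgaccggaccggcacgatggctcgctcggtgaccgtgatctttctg
Ifi27, at chr6:128355062-128355361 on the plus strand: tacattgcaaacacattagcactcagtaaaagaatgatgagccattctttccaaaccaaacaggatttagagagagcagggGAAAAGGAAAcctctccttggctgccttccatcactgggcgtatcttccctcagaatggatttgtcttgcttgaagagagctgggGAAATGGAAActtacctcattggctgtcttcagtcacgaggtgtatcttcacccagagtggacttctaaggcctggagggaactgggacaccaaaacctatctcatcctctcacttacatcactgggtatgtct
Gbp2, at chr2:234005477-234005776 on the plus strand: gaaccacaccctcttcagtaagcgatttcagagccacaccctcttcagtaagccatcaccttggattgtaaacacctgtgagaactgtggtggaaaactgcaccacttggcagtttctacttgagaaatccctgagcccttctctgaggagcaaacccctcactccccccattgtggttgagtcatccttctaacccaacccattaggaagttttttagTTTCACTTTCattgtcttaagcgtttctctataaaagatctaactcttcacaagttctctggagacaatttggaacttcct
Irf7, at chr1:205799974-205800273 on the minus strand: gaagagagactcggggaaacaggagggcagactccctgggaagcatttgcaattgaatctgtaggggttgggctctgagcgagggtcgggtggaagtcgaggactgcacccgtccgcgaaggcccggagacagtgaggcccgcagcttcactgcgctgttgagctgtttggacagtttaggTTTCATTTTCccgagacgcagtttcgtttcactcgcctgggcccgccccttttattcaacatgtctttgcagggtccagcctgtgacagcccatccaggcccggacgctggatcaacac
Ifi44l, at chr2:243328473-243328772 on the plus strand: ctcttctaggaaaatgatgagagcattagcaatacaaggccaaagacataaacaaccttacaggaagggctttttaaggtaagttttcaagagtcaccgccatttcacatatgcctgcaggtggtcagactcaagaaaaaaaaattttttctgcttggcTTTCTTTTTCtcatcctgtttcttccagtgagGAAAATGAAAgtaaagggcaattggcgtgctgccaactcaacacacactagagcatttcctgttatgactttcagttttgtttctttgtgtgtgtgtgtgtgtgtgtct
RT1-S3, at chr20:2675278-2675577 on the plus strand: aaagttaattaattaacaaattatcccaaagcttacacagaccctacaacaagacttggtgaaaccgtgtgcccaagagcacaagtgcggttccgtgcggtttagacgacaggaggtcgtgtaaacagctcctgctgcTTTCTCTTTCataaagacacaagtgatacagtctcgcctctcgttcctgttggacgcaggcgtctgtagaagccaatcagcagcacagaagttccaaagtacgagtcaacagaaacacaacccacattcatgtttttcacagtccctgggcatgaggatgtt
The first match begins 150 bases before the start in B2m, 69 before it in Irf7, 112 in RT1-S3 and 31 in Gbp2. Ifi27 holds a pair of matches, beginning 169 and 84 bases before its start, and Ifi44l a pair, at 91 and 59 bases. Of the 65 members 57 had a promoter in the table. The motif was found in 15 of these (26.3%), against 1312 of 33469 promoters in all (3.92%). By role it stood in 9 of 17 effectors, 5 of 19 class I genes (B2m, RT1-N3, RT1-S3, Tap1 and Tap2), 1 of 6 IRFs (Irf7), 0 of 7 class II genes and 0 of 6 STATs. The STAT site TTCNNNGAA, also searched on both strands, was found in 12 of 57 member promoters (21.1%) against 8.87% of all promoters, among them Irf1, Irf8 and Irf9. The Y box ATTGG, searched in the same way, which the class II control complex is known to use, was found in 6 of the 7 class II promoters (85.7%), 12 of 19 class I promoters (63.2%) and 30 of 57 member promoters (52.6%), and in 37.5% of all promoters. A match is only a run of letters in a window of 300 bases; overlaps between motifs were not resolved, and binding was not measured.

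The arrays were close to one another. Mean array intensity was 183.6 to 238.8, the 3 dimmest arrays were those of male 4, female 2 and male 2, and arrays correlated pairwise at 0.981 to 0.994 on the log2 scale. Neuronal transcripts were present as the tissue label requires, with 5 of 5 tested neuronal markers above the olfactory range defined below. Male 3 and male 2 stood apart in choroid plexus genes, whose summed intensity was 7712 and 1890 against 465 to 665 in the other 7 animals. Ttr, with 12.72 in male 3, dominates the sum in that animal. On the list, 3 of 7 tested genes lay above the olfactory range, and all but Kcnj13 were highest in male 3. The same number stands in 3 sample titles at a time, for 1 female and 2 males each, and its meaning is not stated; it was tested as a possible batch. P-values measure the spread between these animals only.

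Many members lay close to the level of genes not used in cortex. Values are background-corrected, quantile-normalized log2 intensities, and the 21 probes of olfactory receptors, genes of the nose, served as a yardstick: the 95th percentile of their means was 6.26, although the brightest of them, Olr59, reached 8.50. Probes differ in brightness for the same amount of RNA, so levels are set against this range. Where genes are picked by their highest mean, this ranks probes and not amounts of RNA. By this measure 36 of the 65 members (55.4%) lay above the range, compared with 64.9% of all probes with a symbol. The share was 11 of 20 in class I, 6 of 8 in class II, 10 of 22 among effectors, 4 of 7 IRFs, 3 of 6 STATs and 2 of 2 IRF2-binding proteins. In all, 64 members were detected on at least 3 arrays and tested, and 50 were detected on all 9; the class I gene RT1-T24-2 was detected on 2 arrays and was left out of the tests. With the 99th percentile of the olfactory probes, 8.05, as the limit, B2m, Ifi27, Irf3 and Irf2bp1 remained above it.

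**Figure D1:**
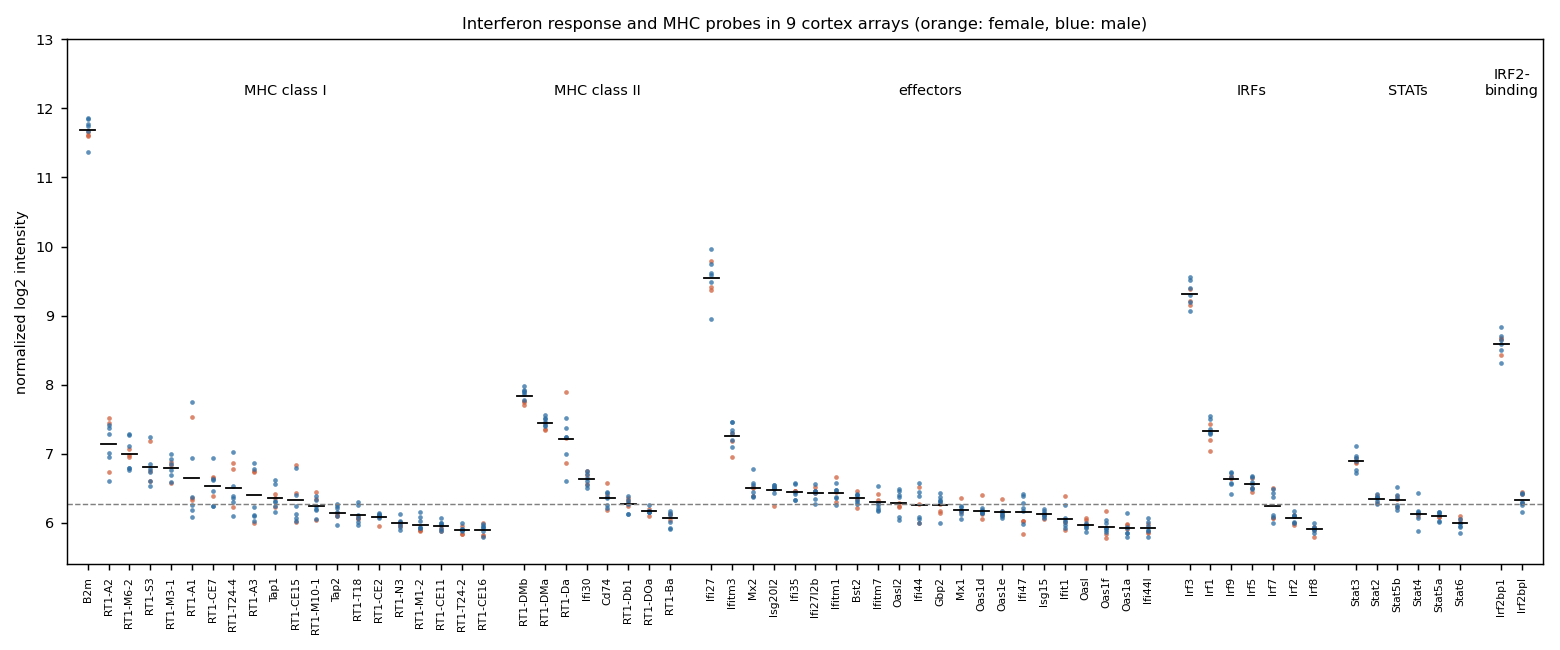
Normalized log2 intensity (vertical axis) of all 65 members in each animal (points: females orange, males blue) with the mean over 9 animals (bars), arranged by role; the dashed line is the 95th percentile of the olfactory receptor probes, 6.26. B2m, Ifi27, Irf3 and Irf2bp1 lie far above the line, most other members within 1 log2 unit of it, and RT1-A1, RT1-A2 and RT1-Da show wide spreads.

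B2m, which encodes beta-2-microglobulin, the light chain shared by class I molecules, had a mean of 11.68 ± 0.15 (SD, n = 9), with 11.37 in male 6 as the lowest value and 11.86 in male 3 as the highest. Its SD stood at the 49.6th percentile of tested probes in its decile of level. The spread of the heavy chain genes for their level ran from the 22.7th percentile in RT1-CE2 to the 99.6th in RT1-A1. RT1-A2, a classical heavy chain gene, had a mean of 7.15 ± 0.33 (SD, n = 9), RT1-A1 a mean of 6.65 ± 0.61 and RT1-A3 a mean of 6.40 ± 0.37. Ranked by SD among tested probes of the same level decile, the median class I gene stood at the 89.5th percentile, and 9 of the 19 tested class I genes were in the top 10%. Over all members 19 of 64 were in that top 10%. Tap1 and Tap2, which together form the peptide transporter, had means of 6.35 ± 0.15 and 6.14 ± 0.09.

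In RT1-A1 a pair of animals stood far above the rest. Female 2 had 7.52 and male 3 had 7.75, male 2 had 6.93, and the other 6 animals lay between 6.09 and 6.38. RT1-S3, a nonclassical class I gene, was high in the same pair, with 7.18 in female 2 and 7.25 in male 3 against 6.53 to 6.86 elsewhere. In both genes the high animals are 1 female and 1 male, and both carry the same title number, while male 4, which carries it too, had the lowest value of all 9 in both. The 3 animals highest for RT1-A1 were also the 3 lowest in the summed intensity of meningeal genes, with 4694 in female 2, 7480 in male 2 and 9545 in male 3 against 9611 to 13560 elsewhere. Ptgds, with a mean of 12.91 against at most 8.89 for the other listed genes, dominates this sum. Most of the listed genes were lowest in female 2. The list did not set male 2 and male 3 low as a whole: Col3a1 was highest in male 2 and Igfbp2 in male 3, and Dcn and Lum were lowest in male 6. Male 3 and male 2 were also the highest in choroid plexus genes, as given above. Within the 7 animals below the gap, RT1-A1 had r = -0.92 with the log2 meningeal sum (exact permutation p = 0.0069, adjusted p = 0.069 over 10 marker lists; rho = -0.93, exact p = 0.0067, adjusted p = 0.067), and -0.91 without the 2 animals farthest from its median. With the choroid plexus sum it had r = 0.95 (exact permutation p = 0.017, adjusted p = 0.085; rho = 0.79, exact p = 0.048, adjusted p = 0.240), and 0.54 without the 2 farthest animals, male 2 being one of them. Without the 2 farthest animals r was also -0.96 with the microglial and -0.87 with the astrocyte sum, against -0.30 and -0.12 over all 7. With male 2 alone left out, r was -0.77 with the meningeal sum and -0.94 with the astrocyte sum. It was then -0.90 for microglia, -0.83 for endothelial genes and 0.83 for neurons. The relation was thus not particular to the meningeal list. None of these 10 relations passed adjustment. They were computed after the values were seen, in animals picked by the values of RT1-A1 itself, so their p-values serve as description only.

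RT1-A3 divided the animals into sets of 4 and 5. Female 2, female 3, male 2 and male 3 had 6.75, 6.74, 6.78 and 6.86, and the other 5 animals had 6.22 or less, with female 1 the lowest. The high set held both sexes and all 3 title numbers. In RT1-A2 the set of 4 was the low one: female 2, male 2, male 3 and male 4 had 6.74, 6.60, 6.95 and 7.01, and the other 5 animals had 7.28 to 7.52. Female 2, male 2 and male 3 were thus high for RT1-A3 and low for RT1-A2, while female 3 was in the high set and male 4 in the low set of both. The low set for RT1-A2 included all 3 dimmest arrays, whose part in it was not tested. It also held all 3 animals of a single title number: female 2, male 3 and male 4. Across title numbers RT1-A2 had a limma unadjusted p = 0.085 (F test, adjusted p = 0.563), and number and brightness cannot be told apart here. RT1-A1, RT1-A2 and RT1-A3 follow one another in the RefSeq gene order with 0 protein-coding genes between them, and which copy or allele each of their probes reads was not tested.

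Male 3 was high in other class I genes as well. RT1-CE15 had 6.83 in female 3 and 6.80 in male 3 against 6.01 to 6.43 in the other 7. RT1-T24-4 was highest in male 3 (7.02), female 2 (6.87) and female 3 (6.77), with 6.09 to 6.53 in the rest, and RT1-CE7 ran from 6.24 in male 4 to 6.93 in male 3. Male 3 was the highest animal for RT1-A1, RT1-A3, RT1-S3, RT1-T24-4 and RT1-CE7, and it is also the animal with the highest choroid plexus sum. The part of choroid plexus content in the genes other than RT1-A1 was not tested. The T cell markers (0 of 4 tested above the olfactory range) and the B cell marker (0 of 1) gave no signal in any animal beyond that range.

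A gap of at least 0.25 log2 units between neighbouring animals, with at least 2 animals on each side, was seen in 6 of 64 members (9.38%): RT1-A1 (0.59), RT1-A3 (0.52), RT1-CE15 (0.37), RT1-S3 (0.33), RT1-A2 (0.27) and Irf7 (0.26). Over all tested probes the share was 3.03%. These 6 were chosen by their values, and no test was made between the sets of animals they define. Of 15 other settings, those of background and scaling kept the same animals apart in each of the 6 genes, with gaps in RT1-A1 of 0.56 to 0.77. The settings with animals left out kept them apart too. Removing animals from sets already apart can hardly close a gap, so these settings add no support. Without the 3 dimmest arrays, female 2 among them, the RT1-A1 gap was 1.43, with male 3 alone on the high side. For Irf7 the smallest gap was 0.04, with a floor of 64 in place of background correction.

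**Figure D2:**
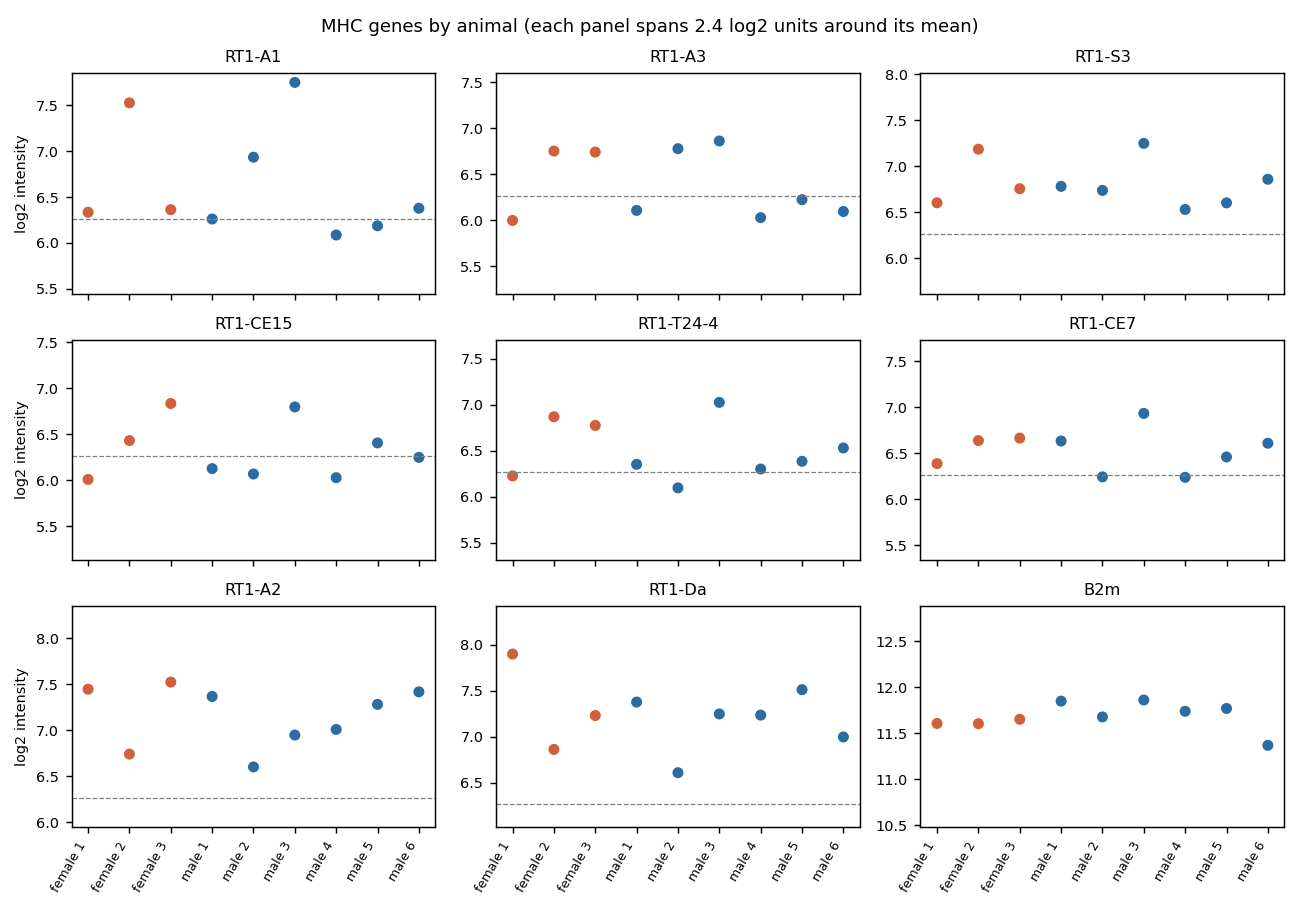
Log2 intensity (vertical axes, each spanning 2.4 log2 units) of 9 MHC genes in each animal (horizontal axis; females orange, males blue), with the olfactory receptor limit of 6.26 dashed where it falls in the panel. RT1-A1 and RT1-S3 stand out in female 2 and male 3, RT1-A3 falls into sets of 4 and 5 animals, and B2m, drawn on the same span, varies less.

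The class II genes differed in spread. The exchange factor subunits RT1-DMb and RT1-DMa, which load peptides onto class II molecules, had means of 7.84 ± 0.09 and 7.45 ± 0.07 (SD, n = 9), and their spread was low for their level, at the 12.8th and 3.83rd percentile of their decile. RT1-Da, the alpha chain of a class II molecule, had a mean of 7.22 ± 0.37 and stood at the 97.7th percentile. Its values ran from 6.61 in male 2 and 6.86 in female 2 through a median of 7.23 to 7.51 in male 5 and 7.90 in female 1. Female 1 was thus the highest animal, and a pair of the 3 dimmest arrays the lowest.

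The invariant chain gene Cd74, whose product escorts class II molecules, had a mean of 6.36 ± 0.12, with 6.57 in female 1 as the highest value and 6.19 in female 2 as the lowest. RT1-Db1, the partner beta chain of RT1-Da, had a mean of 6.27 ± 0.09, an SD at the 69.6th percentile of its decile. Ifi30, a lysosomal thiol reductase that unfolds antigens, had a mean of 6.64 ± 0.09. RT1-DOa, which restrains the exchange factor, and RT1-Ba, the alpha chain of the other class II molecule, lay within the olfactory range at 6.17 and 6.06.

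Among the IRFs, Irf3, the resting sensor-activated factor that starts interferon transcription, had a mean of 9.31 ± 0.17 (SD, n = 9), from 9.07 in male 2 to 9.56 in male 6. Irf1, a target of interferon gamma, had 7.33 ± 0.15. Irf9, the DNA-binding partner of STAT proteins, had 6.63 ± 0.10, and Irf5, a factor of myeloid cells, 6.56 ± 0.08. Irf7, Irf2 and Irf8 lay within the olfactory range at 6.24, 6.06 and 5.90. Of the STATs, Stat3 had 6.90 ± 0.11, Stat2 6.35 ± 0.05 and Stat5b 6.32 ± 0.11, while Stat4, Stat5a and Stat6 lay within the range. The 2 genes for IRF2-binding proteins, Irf2bp1 and Irf2bpl, corepressors named for IRF2, had 8.59 ± 0.16 and 6.33 ± 0.10.

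Ifi27, a mitochondrial and nuclear envelope protein induced by interferon alpha, had the brightest effector probe at 9.55 ± 0.29 (SD, n = 9), with 8.95 in male 4, a median of 9.58 and 9.96 in male 6. Ifitm3, a membrane protein that blocks virus entry, had 7.25 ± 0.17. Isg20l2, Ifi35, Ifi27l2b, Ifitm1, Bst2, Ifitm7 and Oasl2 had means of 6.29 to 6.47, and Mx2, a relative of the antiviral GTPase Mx1, lay just above them. The remaining 12 effectors lay within the olfactory range, among them the textbook reporters of an interferon response: Isg15, a ubiquitin-like modifier, at 6.12 ± 0.04, Mx1, a GTPase that traps viral particles, at 6.19 ± 0.09, Ifit1, which binds foreign RNA, at 6.06 ± 0.16, and the oligoadenylate synthetase gene Oas1a at 5.93 ± 0.10.

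Within that dim range Irf7 separated the animals. Female 2 was the brightest, male 3 had 6.48, male 6 6.43 and male 1 6.38, and the other 5 animals had 6.12 or less, with male 4 the lowest. The 4 brightest animals held 1 female and 3 males and all 3 title numbers. Those same 4 animals were also the 4 brightest for Ifi44l, a paralogue of the antiviral Ifi44, for Mx1, Mx2 and Ifit1, and for the class I genes RT1-N3 and RT1-S3.

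In all, 6 of the 63 other tested members (9.52%) had the same 4 brightest animals as Irf7, against 0.523% of all tested probes; this count was made after the values were seen and is a description. The steps were small in most of them. Ifi44l was detected on 4 arrays, with 5.94 to 6.07 in the 4 animals and 5.79 to 5.89 in the rest, and Mx1 had 6.18 to 6.36 against 6.05 to 6.17. Mx2, above the olfactory range in all 9 animals, had 6.78 in male 6 and 6.52 to 6.58 in the other 3, against 6.38 to 6.51. Ifit1 was high mainly in female 2 (6.39) and male 1 (6.25). Without normalization the count was 2 of 63 (Ifi44l and RT1-S3), against 0.405% of all tested probes. It was also 2 of 63 (Mx2 and RT1-S3) with scaling to the 75th percentile, against 0.151%. With a floor of 64 it was 2 of the 41 members that varied (Mx2 and RT1-S3), against 0.365% of the probes that varied.

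Other effectors did not follow these animals. Isg15 ran only from 6.06 to 6.20 and was brightest in male 2. Ifi44, despite its name shared with Ifi44l, was low in female 2, male 2, male 3 and male 4, with 5.99 to 6.09, and had 6.27 to 6.58 in the other 5 animals. These are the same 4 animals that were low for RT1-A2, and again include all 3 dimmest arrays and all 3 animals of a single title number. The summed microglial intensity of the 4 animals high for Irf7 was 2295 to 2797 and that of the others 2434 to 3129, so the ranges overlapped.

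**Figure D3:**
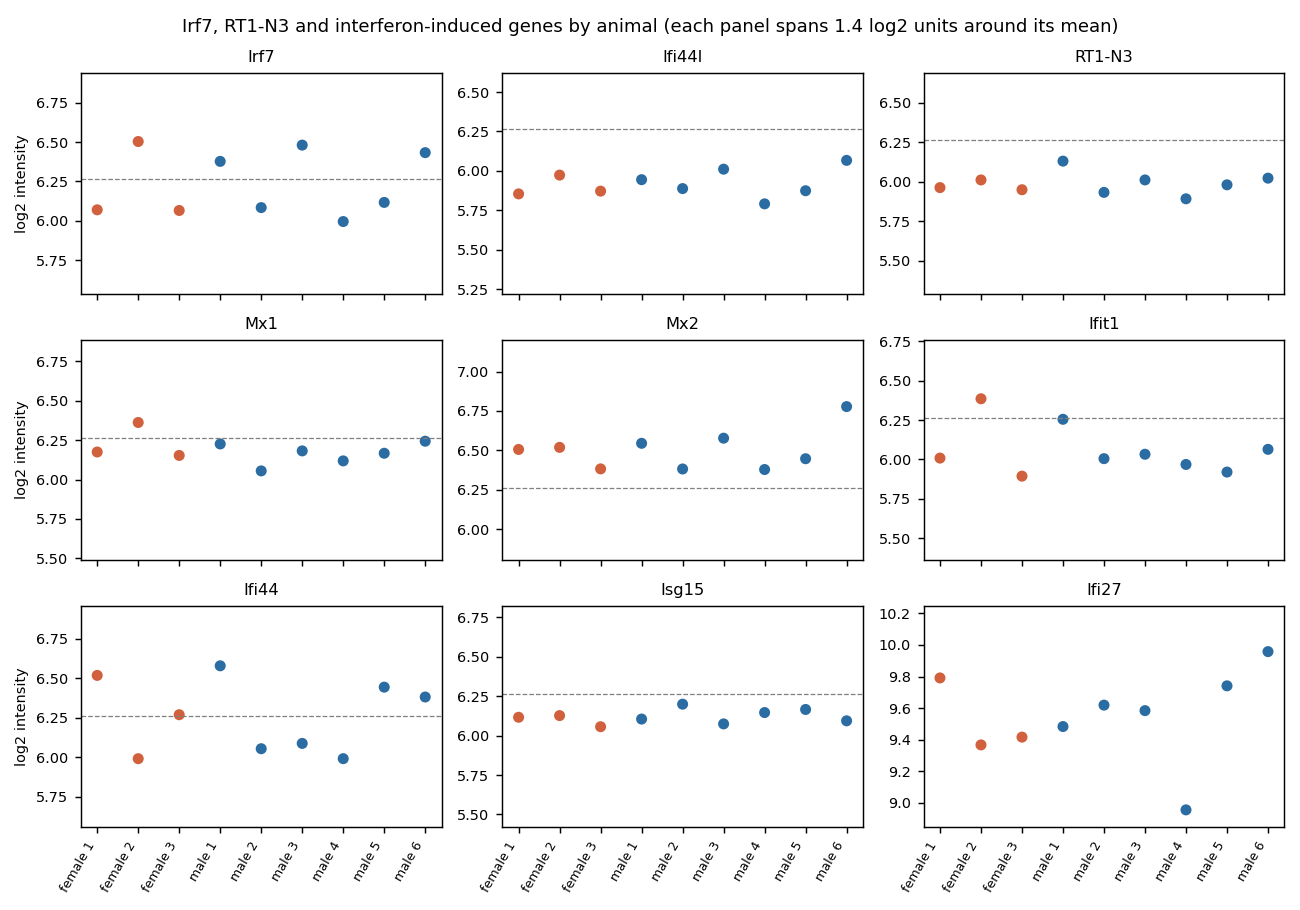
Log2 intensity (vertical axes, each spanning 1.4 log2 units) of Irf7, RT1-N3 and 7 interferon-induced genes in each animal (horizontal axis; females orange, males blue), with the olfactory receptor limit of 6.26 dashed where it falls in the panel. Female 2, male 1, male 3 and male 6 are the 4 brightest animals for Irf7, Ifi44l, RT1-N3, Mx1, Mx2 and Ifit1, but not for Ifi44, Isg15 or Ifi27.

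No member passed the adjusted threshold between the sexes. In limma's fit over 18531 probes 0 were called at an adjusted p under 0.05, and the lowest adjusted p of any member was 1.00. At an unadjusted p under 0.05, 2 of 64 members were called (3.12%), both higher in males, against 2.37% of all tested probes, of which the male-biased made up 1.19% and the female-biased 1.18% of those tested. RT1-DMb had 7.70, 7.76 and 7.74 in the females and 7.77 to 7.97 in the males. The sexes thus did not overlap, although female 2 at 7.76 and male 6 at 7.77 nearly met. The difference was 0.15 log2 units (SE 0.05, limma unadjusted p = 0.013, adjusted p = 1.00).

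Ifi47, an interferon-gamma-induced GTPase, had 6.02, 6.02 and 5.84 in the females and 5.98 to 6.41 in the males. Its difference was 0.28 log2 units (SE 0.09, limma unadjusted p = 0.012, adjusted p = 1.00), and male 2 lay among the females. Beside these, the microglial marker Aif1 differed by 0.33 log2 units (limma unadjusted p = 0.0081, adjusted p = 1.00) and C1qa by 0.21 (limma unadjusted p = 0.021, adjusted p = 1.00), both higher in males. All 8 microglial markers above the olfactory range had a higher mean in males, by 0.01 to 0.33 log2 units. Of the 11 tested, 9 were higher in males, against 49.7% of all tested probes. An unadjusted p under 0.05 was reached by 2 of the 11, against 2.37% of all tested probes. Cx3cr1, within the range at 6.17, had a difference of -0.04, and the protease gene Ctss, which is not on that list, one of -0.0038. The part of microglial content in the RT1-DMb difference was not tested.

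Across all tested members the median difference between sexes was 0.0088 log2 units, with 36 of 64 higher in males. Over all tested probes the median was -0.00035, and 49.7% were higher in males. Only RT1-DMb and RT1-M1-2 had no overlap between the sexes, which is 3.12% of the members, against 1.5% of all tested probes. With 3 females the fit left wide intervals where animals vary: for RT1-A1 the 95% interval of the difference ran from -0.99 to 0.70, and for RT1-Da from -0.68 to 0.35. B2m was more tightly bounded, at -0.12 to 0.30.

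**Figure D4:**
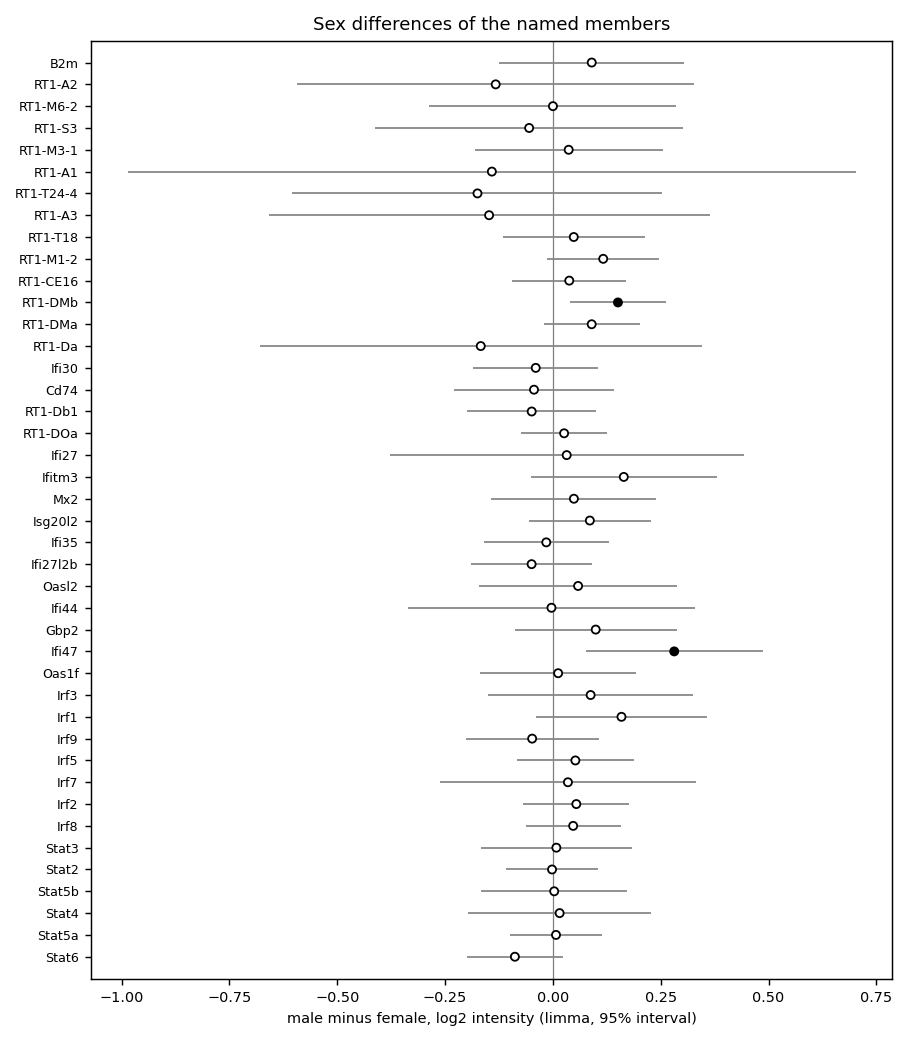
Male minus female difference in log2 intensity (horizontal axis) of the 42 members named by the rule, with limma 95% intervals; filled points have an unadjusted p under 0.05. RT1-DMb and Ifi47 are filled, and the intervals of RT1-A1, RT1-A3, RT1-Da and RT1-A2 are the widest.

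The title numbers did not separate members beyond adjustment either. With sex in the model, limma's F test called 0 of 18531 probes at an adjusted p under 0.05, and the lowest adjusted p of a member was 0.490. At an unadjusted p under 0.05 it called 5 of 64 members (7.81%) against 9.56% of all tested probes. Those 5 were RT1-T24-4, Stat3, Irf5, Ifi44 and Oas1f. For RT1-T24-4 the 3 animals of each number, in ascending order of the number, had means of 6.22, 6.73 and 6.56, and for Ifi44 means of 6.38, 6.02 and 6.37. Leaving out female 2 left 0 of these calls.

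Covariation was measured from the member with the highest mean in each role group to every tested probe, by an exact permutation test over all 362880 orders of the 9 animals, with adjustment over the probes and the 5 genes. At an adjusted p under 0.05, 0 members and 0 probes were called for B2m, RT1-DMb, Ifi27, Irf3 and Stat3, and the lowest adjusted p was 0.669. At an unadjusted exact p under 0.05 the counts among the 63 other members were 0 for B2m (4.35% of all probes), 2 for RT1-DMb (5.22%), 4 for Ifi27 (7.13%), 4 for Irf3 (4.93%) and 3 for Stat3 (9.69%). With 9 animals the smallest p of this test is 2.76e-06. Title numbers hold 3 animals each, too few for a correlation within them, so residuals from the means of sex and title number are given instead.

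The closest pair of Irf3 by p among class I genes was with Tap2 (Pearson r = 0.86, exact permutation p = 0.0020, adjusted p = 0.758; Spearman rho = 0.92, exact p = 0.0013, adjusted p = 0.766). Without the 2 animals farthest from the median of Irf3 r was 0.70, on residuals it was 0.85, and with scaling to the 75th percentile it was 0.28. Stat3 and Irf9 had a negative correlation (r = -0.88, exact permutation p = 0.0010, adjusted p = 0.758; rho = -0.75, exact p = 0.026, adjusted p = 0.794), with r = -0.63 without the 2 farthest animals and -0.76 on residuals. Ifi27 and the corepressor gene Irf2bp1 had r = 0.88 (exact permutation p = 0.0021, adjusted p = 0.758; rho = 0.83, exact p = 0.0083, adjusted p = 0.781), with 0.57 without the 2 animals farthest from the median of Ifi27 and 0.86 on residuals. RT1-DMb and RT1-DMa, which form 1 dimer and whose genes are neighbours, had r = 0.70 (exact permutation p = 0.042, adjusted p = 0.791; rho = 0.65, exact p = 0.067, adjusted p = 0.837), 0.76 without the 2 farthest animals and 0.61 on residuals.

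A second set of genes was taken after the values were seen: in each group, the member most variable for its level. These were RT1-A1, RT1-Da, Ifi44, Irf7 and Stat4. RT1-A1 divides the animals into sets of 2 and 7 and Irf7 into sets of 4 and 5, so no correlation over all 9 with other probes is given for them. For the others again 0 members were called at an adjusted exact p under 0.05, and at an unadjusted p under 0.05 the counts were 8 of 63 for RT1-Da (7.08% of all probes), 6 for Ifi44 (13%) and 5 for Stat4 (9.34%).

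Closest to RT1-Da were Ifitm1 (r = 0.89, exact permutation p = 0.0015, adjusted p = 0.607; rho = 0.77, exact p = 0.021, adjusted p = 0.695) and Cd74 (r = 0.85, exact permutation p = 0.0040, adjusted p = 0.612; rho = 0.70, exact p = 0.043, adjusted p = 0.741). RT1-Ba, a class II chain in the olfactory range, had r = 0.75 (exact permutation p = 0.018, adjusted p = 0.624; rho = 0.70, exact p = 0.043, adjusted p = 0.741). Without the 2 animals farthest from the median of RT1-Da, r was 0.68 for Ifitm1, 0.79 for Cd74 and 0.71 for RT1-Ba. On residuals it was 0.96, 0.88 and 0.77. With scaling to the 75th percentile r was 0.76 for Ifitm1, 0.53 for Cd74 and 0.27 for RT1-Ba. RT1-Db1, the beta chain, had r = 0.49 (exact permutation p = 0.183, adjusted p = 0.791; rho = 0.45, exact p = 0.230, adjusted p = 0.884), and r = -0.10 without the 2 farthest animals.

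Mean correlations over whole role groups were low. The mean correlation over all pairs of tested genes was 0.12 in class I (171 pairs), 0.095 in class II (28), 0.11 among effectors (231), 0.047 among IRFs (21) and 0.18 among STATs (15), against 0.00018 over all pairs of tested probes. All pairs share the same 9 arrays, and in class I leaving out male 3 lowered the mean to 0.028.

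**Figure D5:**
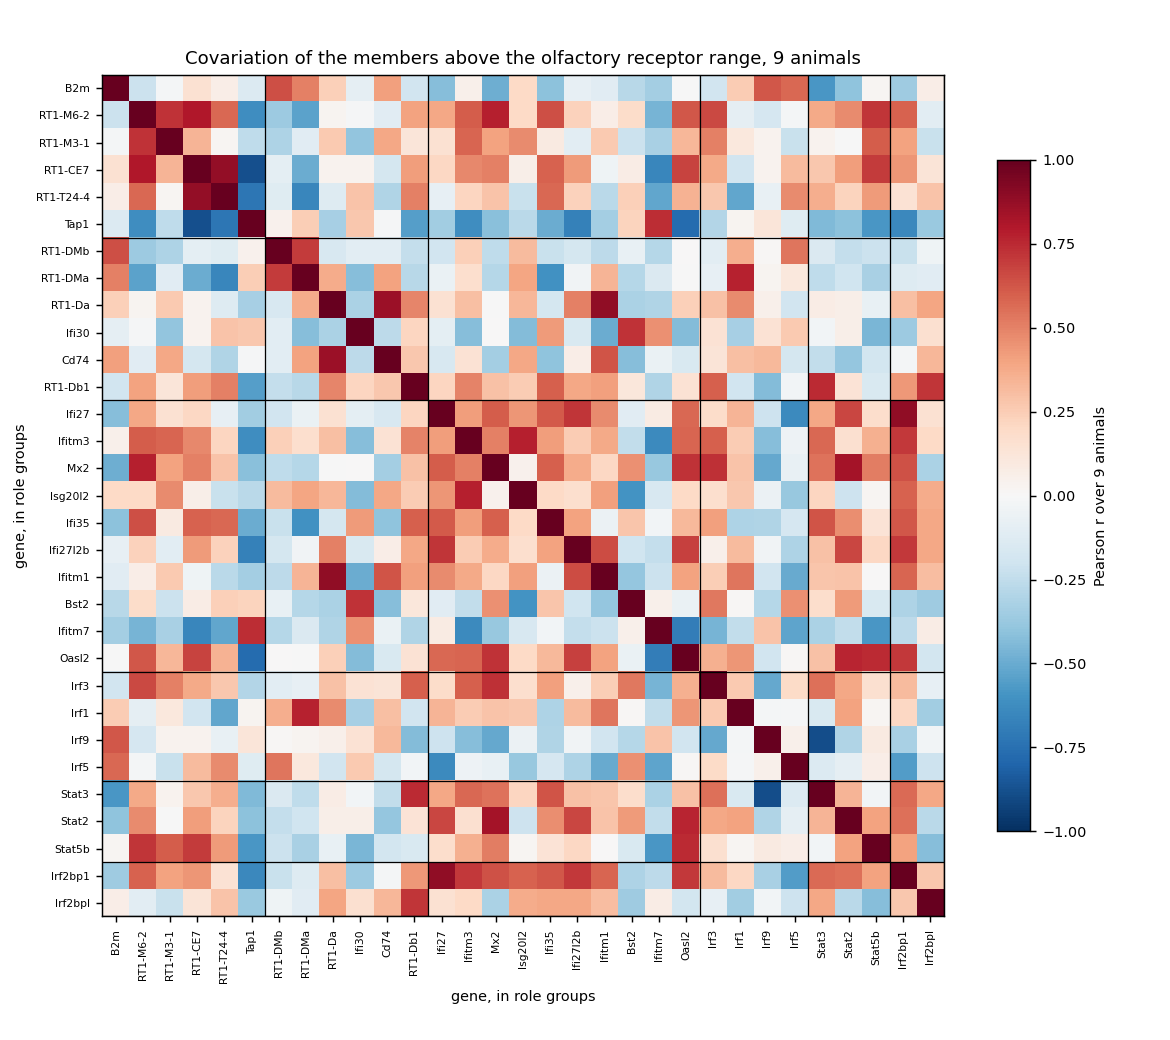
Pearson correlation over the 9 animals (colour scale, -1 to 1) between the members above the olfactory receptor range, in role groups divided by lines; the 5 such members that split the animals into separate sets are left out. The positive block of RT1-Da, Cd74 and Ifitm1 the value of Ifi27 with Irf2bp1 and the negative value of Stat3 with Irf9 can be seen, Tap1 is negative with the other class I genes shown, and groups hold positive and negative pairs side by side.

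The 5 genes of highest mean were also set against the log2 summed intensity of 10 marker lists, 50 relations in all, and none passed adjustment. The strongest were those of RT1-DMb, with the microglial sum (r = 0.83, exact permutation p = 0.0064, adjusted p = 0.160; rho = 0.87, exact p = 0.0045, adjusted p = 0.207) and with the neuronal sum (r = -0.85, exact permutation p = 0.0050, adjusted p = 0.160; rho = -0.83, exact p = 0.0083, adjusted p = 0.207). Without the 2 animals farthest from the median of RT1-DMb r was 0.91 and -0.70. RT1-DMb did not overlap between the sexes, and both sums leaned by sex too. The microglial sum was 2295 to 2603 in females and 2442 to 3129 in males. The neuronal sum was 13058 to 14195 in females and 11489 to 13068 in males. The part of sex in both correlations was not tested. For B2m the closest list was blood (r = 0.64, exact permutation p = 0.061, adjusted p = 0.504; rho = 0.78, exact p = 0.017, adjusted p = 0.287), with 0.59 without its 2 farthest animals. Microglia came next (r = 0.60, exact permutation p = 0.087, adjusted p = 0.542; rho = 0.73, exact p = 0.031, adjusted p = 0.369), with 0.60 without them. Of 11 tested microglial markers 8 lay above the olfactory range. The second set of 5 genes gave 50 further relations, of which none passed adjustment either. The lowest adjusted p, 0.066, was that of the ranks of RT1-A1 with the meningeal sum over all animals (rho = -0.92, exact permutation p = 0.0013). That value pools the separate sets of animals in RT1-A1 and is a description only. RT1-Da with the same sum had r = 0.67 (exact permutation p = 0.058, adjusted p = 0.581; rho = 0.77, exact p = 0.021, adjusted p = 0.356), and 0.85 without its 2 farthest animals.

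The surrounding pathway was read from the same fits. Of 16 listed receptor and signalling genes 11 were tested and 10 lay above the olfactory range, among them the interferon gamma receptor chains Ifngr1 at 7.93 and Ifngr2 at 8.79, the kinases Jak1 at 8.96 and Jak2 at 7.83, and Ifnar1, a chain of the type I receptor, at 6.36. Of 20 listed sensor genes 11 were tested and 3 lay above it: the adaptor Mavs at 6.98 and the kinases Tbk1 at 7.33 and Ikbke at 6.28. The 2 tested interferon genes, Ifna4 and Ifng, both lay within the range at 6.02 and 6.01.

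Among 18 listed partners in antigen processing 14 were tested and 11 lay above the range, including the immunoproteasome subunits Psmb10 at 9.80 and Psmb8 at 7.22, the proteasome activator Psme1 at 9.33 and the class II protease Ctss at 10.68. None of these 4 lists held a gene at an adjusted p under 0.05 between the sexes or across title numbers in limma's fits. At an unadjusted p under 0.05 there was 1 gene between the sexes (Psmb9, 0.14 log2 units higher in males, limma unadjusted p = 0.045, adjusted p = 1.00) and 1 across title numbers (Canx, limma unadjusted p = 0.0036, adjusted p = 0.366).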

How the data were processed

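The authors deposited 1 linear probe intensity per probe and array, without detection p-values, and a second, series-wide table of log2 values for 15912 probes; that the latter is quantile-normalized was taken from its values, and for the scanner software nothing is given in the sources used here. These deposited intensities were background-corrected with normexp (offset 50), log2-transformed and quantile-normalized in limma 3.58.1 under R 4.3.3. The offset understates differences of dim probes. Detection meant an intensity above the array's 25th percentile, and tests were run on 18531 probes that reached it on 3 or more arrays. Symbols came from the platform annotation and were updated through gene identifiers in RefSeq GRCr8 for 10662 of 10687 named probes. Each member has 1 probe, so near-identical RT1 genes may share signal.

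Sexes were compared with limma (lmFit, eBayes), title numbers with its F test with sex as covariate, and Benjamini-Hochberg adjustment covered every tested probe, or probes and reference genes for the exact two-sided correlations. No sex or number was inferred from values; replicate numbers follow the order of the records. The members, role groups and lists were chosen with earlier results of these data known. Named members are, in each role group, the 5 highest means, the 3 largest SDs above the olfactory range, the reference gene, the 4 closest to it, and any with an unadjusted p under 0.05; RT1-CE7, RT1-CE15, RT1-N3, Ifi44l, Mx1, Isg15, Ifit1, Oas1a, Ifitm1, Ifitm7, Bst2, Oas1d, Oas1e, Tap1, Tap2, RT1-CE2, RT1-T24-2, RT1-Ba and the IRF2-binding proteins, which were not treated as a role group for the rule, lie outside it and were picked with their values in view, as were the pathway genes given with values. Of the promoters, those of B2m, Ifi27 and Gbp2 follow the rule for sequences; those of Irf7, Ifi44l and RT1-S3 were added with values in view, RT1-DMb had none, and that of RT1-M1-2, which the rule also covers, is not shown. The procedures were tested on simulated data. At an adjusted p under 0.05, limma called 10 of 50 probes with a shift of 0.25 log2 units between the sexes, and 47 of 50 with a shift of 1. For a shift in 1 title number it called 2 of 50 at 0.25 and 42 of 50 at 1. All shifted probes were run together, with independent noise, and came from probes detected on all arrays. In the data themselves no probe passed, so these rates can overstate what the fit would call. Small differences could thus go uncalled. Alternatives changed the background, the scaling, the filter, weights, trend, animals and the correlation measure, and used the deposited log2 table.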

Additional observations from a re-analysis of the deposited data

Results flagged for a closer look

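Over the 9 animals a single animal stood apart, by Dixon's test at its 95% limit, in 5 of the 64 tested members, against 5.89% of all tested probes, and chance flags about 1 in 20 genes. The 2 of these among the members named by the rule were Isg20l2, a paralogue of the exonuclease Isg20, with 6.24 in female 2 and 6.43 in the next lowest animal, and Mx2, with 6.78 in male 6 and 6.58 in the next highest. The other 3 were Oas1e, Oas1d and RT1-CE2, each in female 2, whose array is among the 3 dimmest; the part of array brightness was not tested.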

How the results depend on the processing

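Counts at an adjusted p under 0.05 stayed at 0 for members between the sexes, for members across title numbers and for members with each of the 5 reference genes under every alternative run; over all probes 3 were called across title numbers without the 3 dimmest arrays and 0 to 1 with single animals left out. With title number as a replicate block, 0 probes and 0 members differed between the sexes; the numbers pair no animals, and the block left the count of members at an unadjusted p under 0.05 at 2. That count was 1 with a floor of 64, without normalization, with scaling to the 75th percentile or with detection on all arrays, 4 without the 3 dimmest arrays, and 2 to 4 with single animals left out. Across title numbers the count of 5 became 1 with the floor or without normalization, 3 in the deposited table, 2 with detection on all arrays, and 0 to 6 with single animals left out. Members above the olfactory range numbered 33 to 40 with single animals left out and 4 with the 99th percentile. Members sharing the 4 brightest animals of Irf7 numbered 2 with the floor, without normalization or with the 75th percentile. The shares over all tested probes were then 0.365%, 0.405% and 0.151%. Mean pairwise correlations with the floor were 0.19 in class I, 0.13 in class II, 0.19 among effectors and 0.39 among STATs, where 23 members sit at the floor on all arrays and were left out. Without normalization they were 0.19, 0.49, 0.24 and 0.27, with 0.2 among IRFs. Scaling to the 75th percentile gave 0.064 in class II and 0.26 among STATs. Without the 3 dimmest arrays they were 0.19 in class II, 0.14 among IRFs and 0.067 among STATs. Residuals from sex and title number gave 0.16 in class II, 0.15 among effectors and -0.031 among IRFs, and Spearman correlation 0.096 among STATs. With single animals left out the ranges were 0.028 to 0.16 in class I, 0.066 to 0.17 in class II, 0.061 to 0.15 among effectors, -0.011 to 0.11 among IRFs and 0.052 to 0.26 among STATs. The causes of these shifts were not tested. Taking all probes of a gene is the same as the main setting, since each has 1. The number of arrays and dim signal near the olfactory range limit the precision.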
